A study of Brassica rapa and Brassica rapa x Brassica nigra and Brassica nigra with 18 samples.

Results

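The 40 genes described here held a steady RNA level across anther development in a parental Brassica species and stood at 0.25 of that level or less in a hybrid, at both stages measured. They came from 79644 gene identifiers, of which 4 members carried an A-genome identifier and 36 a B-genome identifier. The libraries were made from anthers of 3 kinds of plant: AA is Brassica rapa, BB is Brassica nigra, and AB is the haploid progeny of a cross with B. rapa as seed parent and B. nigra as pollen parent. Each genome was sampled at meiosis (ME), when spores are formed, and at mitosis (MI), when the male gametophyte develops, with 3 libraries in each of the 6 groups. The labels name no treatment, plant age or accession, and they do not say whether the AA and BB plants sampled were the parents of the AB plants.

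Members were chosen from measured values, so their low level in AB and their steadiness in the parent are given below as a description, with no test. For A genes the reference level is that in AA, and for B genes it is that in BB. Levels are CPM, here the counts of a gene per 1000000 counts on the same genome in that library. They are relative to the other genes of that genome and do not fall merely because AB carries a smaller dose of it. A gene was eligible if its parental level was at least 10 CPM at each stage, with the stages within 2-fold of each other, and if its own parent held at least 90% of its summed parental CPM. A member then had an AB-to-parent ratio, with 0.5 CPM added to both levels, of at most 0.25 at meiosis and at mitosis, and more than 3 AB counts summed over the libraries of each stage.

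An allohaploid has a single chromosome set from each parental species, so the chromosomes lack identical partners at meiosis. In plant hybrids the related copies of a gene from both parental genomes, called homoeologs, are often expressed unequally, and 1 copy can be silenced while the other stays active. Genes with steady RNA through a developmental switch offer a baseline for such a comparison, because their level in the parent does not depend strongly on the stage sampled. The identifiers come without gene names, and 0 of them matched a RefSeq table holding 51589 genes of B. rapa. The roles of the genes and the pairing of A and B copies were therefore not used here, and the anther identity of the libraries could not be checked against marker genes.

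The libraries held between 9782001 and 12161111 counts each. In AB at meiosis, 3 counts summed over the libraries stood for 0.175 CPM of an A gene and 0.196 CPM of a B gene. Separate plants are not named for the replicate libraries, so that a p-value reflects the spread between these libraries only, which may be technical. Replicate pairs differed by more than sampling noise in every group, with a chi-square per degree of freedom between 2.297 and 6.912 over genes.

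Few steady genes were lowered to 0.25 or less at both stages. Of 4564 eligible A genes, 4 were members, which is 0.0876%, and of 5481 eligible B genes, 36 were members, which is 0.657%. The median log2 ratio of AB to the parent over the eligible genes was -0.12 at meiosis and 0.17 at mitosis for A genes. For B genes these medians were -0.11 and 0.01. Scaling within the genome largely centres such medians, so they do not show that single genes kept the parental level. In anther tissue, a lower level can mean fewer cells of a type or less RNA per cell, and these cannot be told apart in bulk RNA.

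In CPM within the genome, more steady genes were below the limit at meiosis than at mitosis. The lists of both stages shared a larger part in B genes than in A genes. At meiosis 109 eligible A genes (2.39%) had a ratio of at most 0.25, and at mitosis 10 did (0.219%). The 4 genes in both lists made up 3.67% of the first list and were 4 of the 10 in the second. The 109 A genes had a median log2 ratio of -0.15 at mitosis. Of the B genes, 189 (3.45%) were below the limit at meiosis and 87 (1.59%) at mitosis, with 61 in both, or 32.3% of the first list and 70.1% of the second. The 189 B genes had a median log2 ratio of -1.09 at mitosis, below that of the A genes. Of the 61 B genes low at both stages, 25 were left out by the limit on AB counts, which left out 0 A genes. Which genes are members depends on the scaling: with TMM factors within each genome there were 8 A members, 3 of them among the 4, and with CPM of all counts there were 27 A and 118 B members. TMM would move the log2 ratio of AB to AA by 0.16 at meiosis and -0.27 at mitosis, and that of AB to BB by -0.13 at mitosis. The lists of single stages are in plain CPM, and the part of scaling in their difference was not tested.

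**Figure D1:**
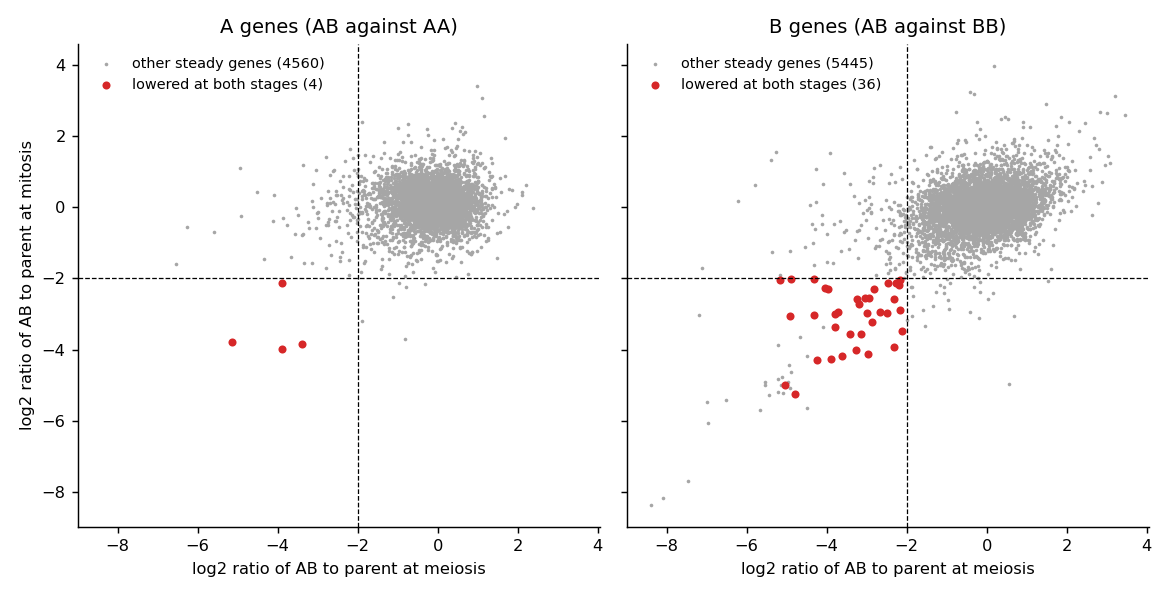
Each point is an eligible steady gene, with the log2 ratio of AB to the parent at meiosis on the horizontal axis and at mitosis on the vertical axis, for A genes (left) and B genes (right). Dashed lines mark a ratio of 0.25, red points are the 4 A and 36 B members, and grey points to the lower left of both lines in the right panel are the 25 B genes with too few AB counts.

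Near the limit the B genes formed a continuum, whereas the A genes were sparse. The B members nearest the limit had a larger ratio of 0.249, 0.248 and 0.243 between both stages, and the nearest B genes outside it had 0.251, 0.254 and 0.266. For A genes the nearest members were at 0.229, 0.0953 and 0.0717, and the nearest genes outside were at 0.266, 0.269 and 0.281. With the same limit on AB counts, 14 B genes had a larger ratio between 0.2 and 0.25, and 14 between 0.25 and 0.3.

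The 4 A members were of moderate abundance in AA and rested on few counts in AB. Their AA levels ran from 14.7 to 39.3 CPM at meiosis and from 15.8 to 48.8 CPM at mitosis. In AB they ran from 0.523 to 2.16 CPM at meiosis and from 0.632 to 10.8 CPM at mitosis. At meiosis all 4 ratios were at most 0.1, and at mitosis 3 were.

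BjuA027772 had the highest AA level of the 4 and was the least lowered at mitosis. Its level at meiosis was 37.9, 42.7 and 37.2 CPM in the AA libraries and 3.16, 2.09 and 1.22 CPM in the AB libraries. At mitosis it was 42.8, 50.4 and 53.2 CPM in AA and 12.9, 9.38 and 10.1 CPM in AB. With the added 0.5 CPM, its AB-to-AA ratio was 6.68% at meiosis and 22.9% at mitosis, with 37 and 186 AB counts behind these values.

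BjuA026668 was lowered furthest at meiosis. Its AA libraries held 31.7, 36.9 and 38.6 CPM at meiosis, and the AB libraries 1.23, 0.348 and 0.0 CPM, so 1 AB library had no count. At mitosis the AA libraries held 20.4, 23.4 and 23.3 CPM and the AB libraries 0.715, 0.885 and 1.82 CPM. The ratios were 2.83% and 7.17%, and they rest on 9 and 20 AB counts.

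In CPM within the genome, BjuA014011 and BjuA016406 moved in opposite directions between stages in AA and were both low in AB. TMM factors would move every stage change in AA upward by 0.52 on the log2 scale, so these moves depend on the scaling. The fall of BjuA014011 in AA would shrink. The rise of BjuA016406, 1.81-fold in plain CPM, would exceed the 2-fold limit, so this gene would not count as steady under TMM. BjuA014011 stood at 22.2, 25.8 and 28.4 CPM in AA at meiosis and at 15.2, 15.1 and 17.1 CPM at mitosis. In AB it stood at 1.76, 1.39 and 2.78 CPM and then at 0.715, 0.354 and 0.826 CPM. Its AB-to-AA ratio, with the added 0.5 CPM, was 9.53% at meiosis and 6.95% at mitosis.

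BjuA016406, named so that every A member is given and chosen after its values were seen, went the other way in AA. It stood at 15.4, 14.8 and 14.0 CPM in AA at meiosis and at 28.0, 24.9 and 26.8 CPM at mitosis. In AB it stood at 0.351, 0.174 and 1.04 CPM and then at 1.07, 1.77 and 0.826 CPM. Its ratios were 6.71% and 6.36%, with 9 AB counts at meiosis and 21 at mitosis.

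The 36 B members covered a wider range of levels. In BB the lowest member stood at 11.1 CPM at meiosis and the median at 33.5 CPM. At mitosis in BB they ran from 10.3 to 322 CPM, with a median of 29.6 CPM. In AB they ran from 0.392 to 35.5 CPM at meiosis, with a median of 2.02 CPM, and from 0.26 to 79.8 CPM at mitosis, with a median of 2.97 CPM. The median log2 ratio of AB to BB was -3.22 at meiosis and -2.96 at mitosis. At meiosis 16 B members had a ratio of at most 0.1 and 7 had a ratio over 0.2. At mitosis these numbers were 12 and 10, and 7 members had a ratio of at most 0.1 at both stages.

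In all 40 members the 3 AB libraries lay below the 3 libraries of the parent at each stage, which the rule largely fixes. The share of eligible genes with such separated libraries was not counted, and nothing is read from the members' own count. A different measure, the share of eligible genes with a ratio of at most 0.25, was 3.45% at meiosis and 1.59% at mitosis for B genes. For A genes it was 2.39% and 0.219%. Of the 24 AB library values of the A members, 1 was at 0 counts, and of the 216 of the B members, 2 were.

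Together the 36 B members took between 0.167% and 0.169% of the B counts in the BB libraries at meiosis and between 0.172% and 0.186% at mitosis. In the AB libraries they took between 0.0167% and 0.0206% at meiosis and between 0.0271% and 0.0309% at mitosis. The 4 A members took between 0.0107% and 0.012% of the A counts in AA at meiosis and between 0.000401% and 0.00065% in AB. At mitosis they took between 0.0106% and 0.012% in AA and between 0.00124% and 0.00154% in AB, a larger AB share than at meiosis.

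**Figure D2:**
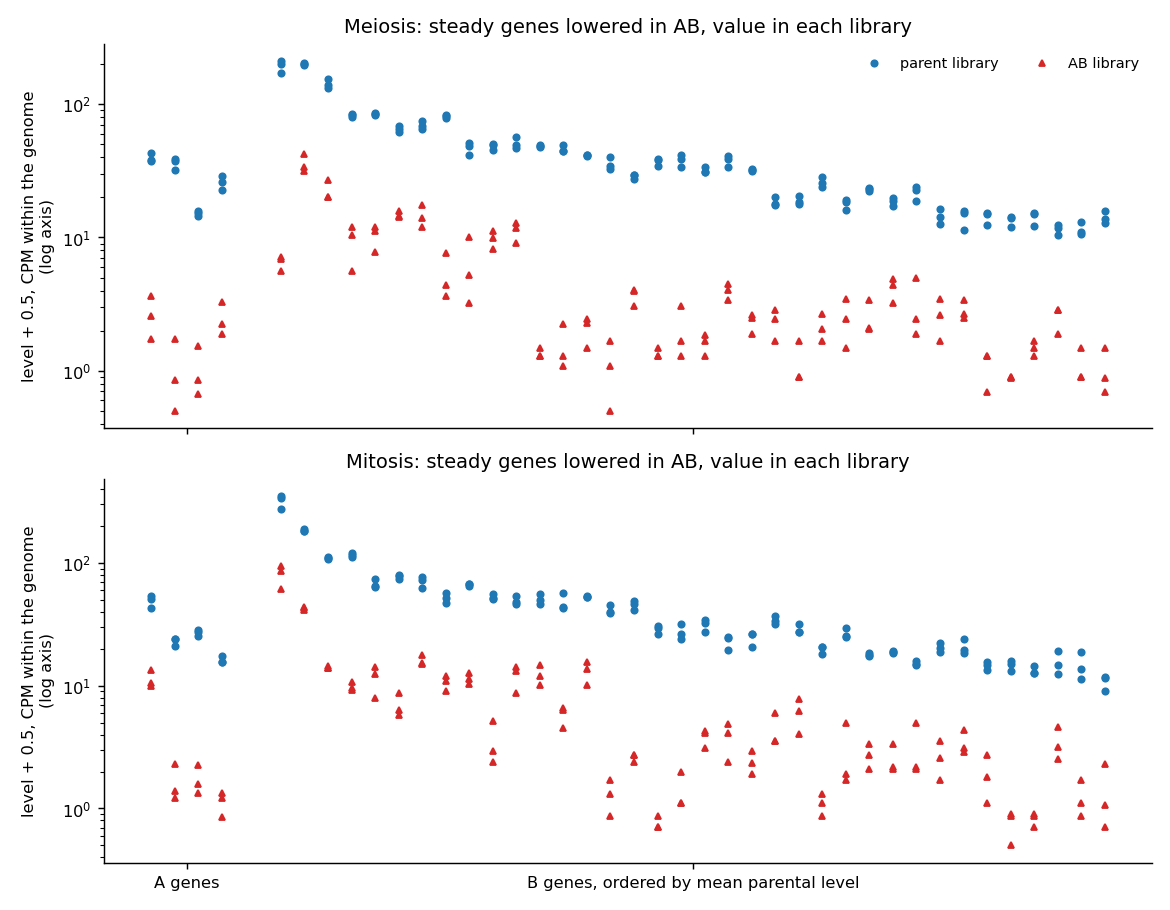
Level of each member in each library at meiosis (top) and mitosis (bottom), as CPM within the genome plus 0.5 on a log axis, with 3 parental libraries (blue circles) and 3 AB libraries (red triangles) per gene. Genes are ordered by their mean parental level within the A and the B genome. AB values lie below those of the parent throughout, which the rule largely fixes, the lowest at 0 counts.

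BjuB019642 and BjuB016151 were the most abundant B members in BB. BjuB019642 stood at 209, 172 and 201 CPM in BB at meiosis and at 5.13, 6.65 and 6.42 CPM in AB. At mitosis it stood at 350.0, 339 and 277 CPM in BB and at 93.5, 84.9 and 61.0 CPM in AB. The means at meiosis were 194 ± 19.3 CPM in BB and 6.07 ± 0.819 CPM in AB (SD, n = 3), and at mitosis 322 ± 39.5 CPM and 79.8 ± 16.8 CPM (SD, n = 3). With the added 0.5 CPM, AB stood at 3.38% of BB at meiosis and at 24.9% at mitosis, just inside the limit.

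BjuB016151 was lowered by a similar amount at both stages. It stood at 202, 197 and 201 CPM in BB and at 31.0, 33.4 and 42.1 CPM in AB at meiosis. At mitosis it stood at 183, 189 and 181 CPM in BB and at 40.8, 43.0 and 42.4 CPM in AB. Its AB-to-BB ratio, with the added 0.5 CPM, was 18.0% at meiosis and 23.0% at mitosis, and it rested on 544 and 641 AB counts.

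BjuB022950 and BjuB029430 had the lowest ratios at mitosis among the other B members with at least 10 AB counts at each stage. BjuB022950 stood at 33.1, 38.6 and 40.8 CPM in BB at meiosis and at 31.6, 26.0 and 23.4 CPM at mitosis. In AB it stood at 0.789, 2.54 and 1.17 CPM and then at 0.608, 0.603 and 1.5 CPM. Its ratios of 5.26% and 5.11% were alike, with 23 and 14 AB counts behind them.

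BjuB029430 stood at 27.1, 28.9 and 28.7 CPM in BB at meiosis and at 45.7, 48.6 and 40.7 CPM at mitosis. In AB it stood at 2.57, 3.52 and 3.5 CPM and then at 2.23, 2.21 and 1.88 CPM. Its ratio was 12.9% at meiosis and 5.73% at mitosis, since its level was higher at mitosis in BB and not in AB.

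The ratio was also read in libraries left out of the choice, as a description. These are replicates of the same groups and may be technical, so low ratios in them are no independent check. When the rule was applied without the libraries numbered 3, it chose 32 B genes, of which 24 were at or below 0.25 at both stages in those libraries and all 32 were below 0.5. Without the libraries numbered 1 it chose 37, of which 27 stayed at or below 0.25 and all 37 below 0.5. Without those numbered 2 it chose 31, of which 25 stayed at or below 0.25 and 30 below 0.5, with a highest ratio of 0.521. For A genes the rule chose 4, 4 and 5 genes without the libraries numbered 1, 2 and 3. Of these, 2, 4 and 3 were at or below 0.25 at both stages in the libraries left out, and the highest ratio was 0.314.

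The AB level of the members was tested for a change from meiosis to mitosis, which the rule does not set: it bounds the AB level at each stage but not the direction between them. Counts were tested with edgeR's quasi-likelihood test over all genes of the genome, with Benjamini-Hochberg adjustment and a threshold of 0.05. Most genes passed this test. Of 23143 A genes tested, 41.0% rose and 36.4% fell in AB, 77.5% in all. Of 21204 B genes tested, 39.2% rose and 37.7% fell, 76.9% in all. Among the eligible steady A genes 50.1% rose and 30.7% fell, 80.8% in all, and among the eligible steady B genes 39.9% rose and 39.9% fell, 79.9% in all.

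Of the 4 A members, 2 rose and 1 fell between stages in AB. BjuA027772 rose by 2.41 on the log2 scale (SE 0.25, edgeR adjusted p = 5.36e-09). Every AB library at mitosis lay above every one at meiosis, which its naming for a large rise largely fixes. BjuA016406 rose from 9 to 21 counts, by 1.29 on the log2 scale (SE 0.52, edgeR adjusted p = 0.0287). That call was lost without AB replicate 1 at meiosis (log2 1.08), without replicate 2 at meiosis (0.89) and without replicate 2 at mitosis (0.94), with adjusted p = 0.094, 0.146 and 0.172 in edgeR. BjuA014011 fell by 1.52 on the log2 scale (SE 0.44, edgeR adjusted p = 0.00333). BjuA026668 did not pass, with a log2 difference between stages of 1.21 (SE 0.62, edgeR adjusted p = 0.0801). It was 2.73 without AB replicate 1 at meiosis, which held most of its counts at that stage, and 1.47 without AB replicate 1 at mitosis, and passed in both fits (edgeR adjusted p = 0.00429 and 0.0494).

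Of the 36 B members, 10 rose, 7 fell and 19 were not called between stages in AB. Together 47.2% were called, and 18 had an unadjusted p under 0.05 in the same edgeR fit. The median log2 change of the members was 0.18, against 0.02 over all B genes tested and 0.01 over the eligible B genes. The median absolute log2 change was 0.68 in the members and 0.71 in the eligible genes. The members called had a median of 187 AB counts over both stages and the members not called had 67, and the part of low counts in the share called was not tested. In BB, 7 of the 10 that rose were also higher at mitosis, and 4 of the 7 that fell were also lower, where the rule kept every BB change within 2-fold. Of all 36 B members, 21 were higher at mitosis in BB, and nothing is read from these small counts. The number that fell was 4 without AB replicate 1 at meiosis, without AB replicate 2 at mitosis or without AB replicate 3 at mitosis.

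Of the 10 B members that rose in AB, 8 did so by at least 2-fold and 5 by at least 4-fold. The 5 had ratios to BB between 0.0278 and 0.0612 at meiosis and between 0.121 and 0.249 at mitosis. That each ratio was lower at meiosis follows from the choice of these 5, since the rule kept the BB change within 2-fold. BjuB007228 showed the largest rise among the members. In BB it stood at 47.8, 47.1 and 48.9 CPM at meiosis and at 49.2, 55.5 and 45.8 CPM at mitosis, so the BB libraries of both stages overlapped.

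In AB, BjuB007228 went from 0.789, 0.782 and 0.973 CPM to 11.4, 9.65 and 14.3 CPM. This was a rise of 3.78 on the log2 scale (SE 0.28, edgeR adjusted p = 1.14e-12), and the AB libraries of both stages did not overlap. Genes named for a large AB change are largely bound to show this, and its share over eligible genes was not counted. BjuB019642, the most abundant B member, rose by 3.72 on the log2 scale in AB (SE 0.18, edgeR adjusted p = 6.53e-17), a 13.1-fold change, while its mean level in BB was 1.66 times as high at mitosis as at meiosis. BjuB016151 had a small log2 rise of 0.25 (SE 0.09, edgeR adjusted p = 0.0158). It did not pass without AB replicate 1 or AB replicate 2 at meiosis, where it was 0.17 and 0.22 (edgeR adjusted p = 0.119 and 0.0629).

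The falls were smaller, with log2 changes from -1.63 to -0.68 among the 7 B members called. BjuB031848 stood at 49.3, 45.0 and 49.7 CPM in BB at meiosis and at 50.6, 55.1 and 51.5 CPM at mitosis. In AB it went from 9.47, 7.63 and 10.7 CPM to 2.43, 4.63 and 1.88 CPM, and the stages did not overlap. It fell by 1.63 on the log2 scale (SE 0.24, edgeR adjusted p = 8.54e-07). BjuB041186 went from 15.4, 14.1 and 13.8 CPM to 5.88, 8.25 and 5.25 CPM in AB and fell by 1.15 (SE 0.17, edgeR adjusted p = 5.68e-07). In BB it was at 60.9, 68.5 and 64.6 CPM and then at 77.4, 79.0 and 73.0 CPM, all above its meiosis values.

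**Figure D3:**
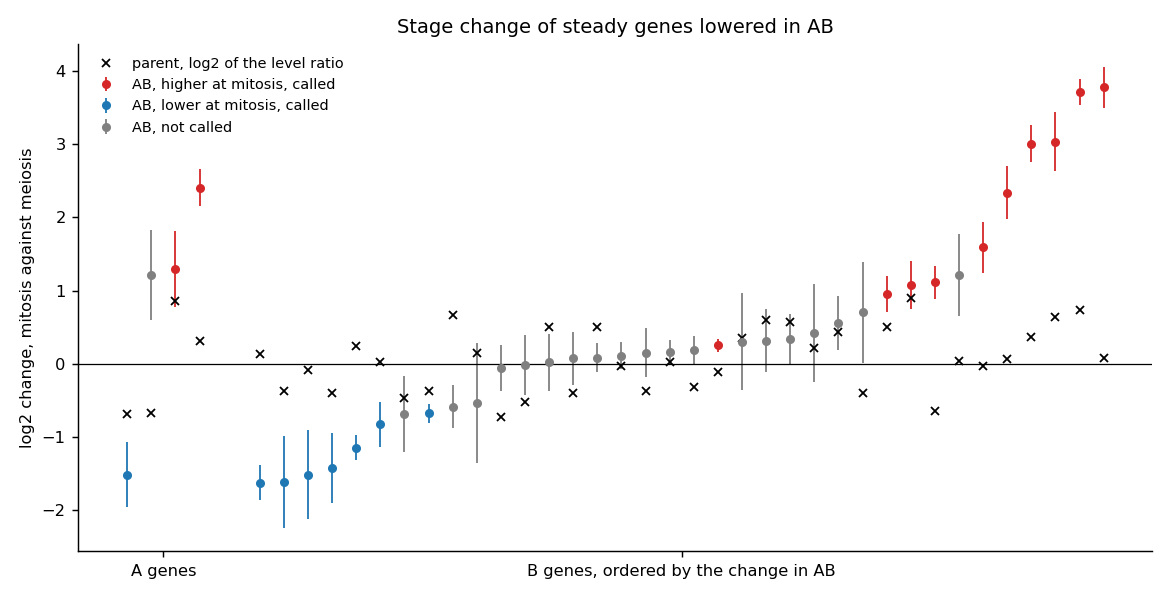
Log2 change from meiosis to mitosis of each member in AB with its standard error, red or blue where it passed an edgeR adjusted p of 0.05 and grey where it did not, and in the parent as the log2 of the ratio of mean levels (crosses, no error shown). The parental values are in CPM within the genome and lie within 1 log2 unit by the rule. The AB values come from the edgeR fit with TMM and run from -1.52 to 2.41 for A genes and from -1.63 to 3.78 for B genes. TMM would move the crosses up by 0.52 for A genes and 0.13 for B genes, so the gap between point and cross is not the tested difference.

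Whether the AB-to-parent ratio of a member differed between stages was tested as an interaction, the stage change in AB minus that in the parent. The fit uses TMM and does not add 0.5 CPM, so its difference is not the change between the ratios given above. The rule bounds the ratio at each stage and the parental change, and so limits the size of this difference, but not its sign. Members were chosen on the same group levels, so their p-values are descriptive and give no independent support. Of the 36 B members, 7 changed more upward in AB than in BB, 7 more downward and 22 were not called by edgeR's quasi-likelihood test. Over all B genes tested, 24.2% and 23.6% were called in these directions, 47.8% in all, and over the eligible B genes 32.1% and 33.6%, 65.7% in all. Of the 4 A members, 1 was called upward and 1 downward, where 21.9% and 21.6% of all A genes tested were, 43.5% in all. Among the eligible A genes 26.0% and 36.5% were called, 62.6% in all.

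The spread between libraries was wider in AB than in the parent, at far lower counts. The median coefficient of variation of the B members was 7.96% in BB and 27.1% in AB at meiosis, and 8.92% and 31.2% at mitosis. For A members it was 8.81% in AA and 66.4% in AB at meiosis.

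Most members were shorter than the median steady gene. Gene lengths were recovered from the FPKM values (counts scaled to gene length and library total). They are taken as coding lengths, since 99.9% were divisible by 3. The 36 B members had a median coding length of 820 bases, with a middle 50% from 670 to 1059, against 1179 bases for the eligible B genes, with 738 to 1746. Of the 36, 29 were shorter than the median eligible B gene. The 4 A members had 603, 789, 795 and 1374 bases, against a median of 1182 for eligible A genes, and 3 of the 4 were shorter than that. At a given number of transcripts a shorter gene collects fewer counts, and the part of length in the result was not tested.

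**Figure D4:**
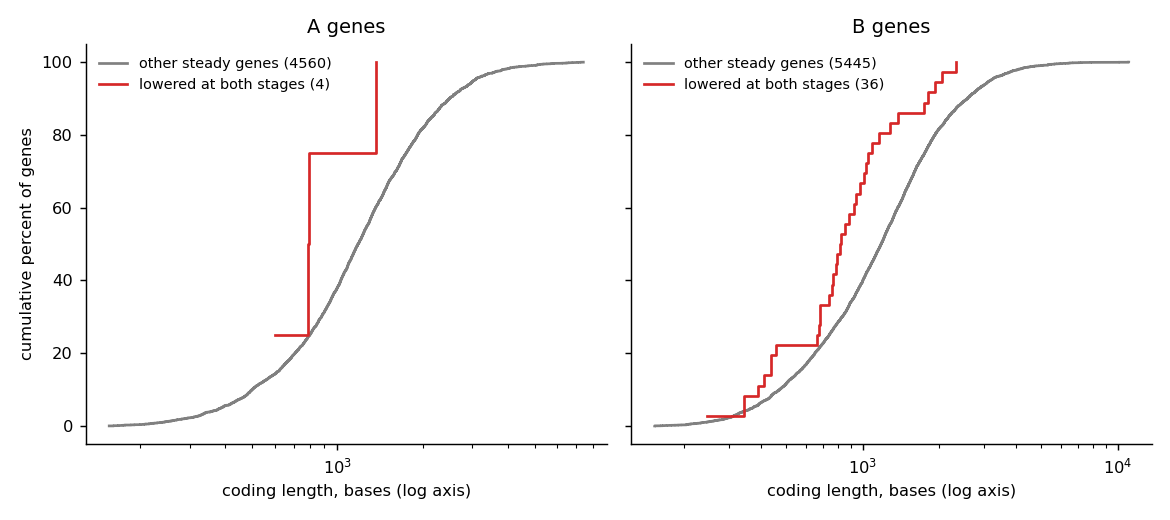
Cumulative percent of genes by coding length in bases on a log axis, for members (red) and the other eligible steady genes (grey), A genes left and B genes right. The curve of the 36 B members lies to the left of the other steady B genes over most of its range, with medians of 820 and 1179 bases for members and all eligible genes.

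Per length, the parental level of the members was like that of other steady genes. The median FPKM in BB over both stages was 29.2 for the B members and 26.3 for the eligible B genes. For A genes it was 26.9 for members and 28.0 for eligible genes. The B members ranged from 8.09 to 201 FPKM in BB. In AB the B members had a median of 1.09 FPKM at meiosis and 1.74 FPKM at mitosis. FPKM is scaled to all counts of the library, so AB values are also lower because each genome takes only part of the counts there.

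Many members were counted in 1 parent only. The rule asks for 90% from the own parent, and 33 of 36 B members and all 4 A members reached at least 99%, which was not counted over the eligible genes. At a limit of 98%, 34 of 36 B members and all 4 A members remained. So did 4974 of 5481 eligible B genes and 3972 of 4564 eligible A genes, so a high share was common among eligible genes too. No count at all in AA was found for 21 of 36 B members, whereas 28.3% of eligible B genes had none. For A genes, 3 of 4 members had no count in BB, against 50.4% of eligible A genes. The highest level of a B member in AA was 2.55 CPM of all counts, for BjuB019642, which took 98.8% of its parental CPM from BB.

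B members were spread over the whole range of parental levels. Of the eligible B genes with a mean level of 10 to 20 CPM, 0.847% were members, and the values for 20 to 40 CPM and 40 to 80 CPM were 0.629% and 0.753%. Above 80 CPM, 4 of 1107 genes were members, which is 0.361%. Before the limit on AB counts, the shares of B genes low at both stages were 2.0%, 0.801%, 0.904% and 0.813% over these 4 ranges, so the lowest range held the highest share and the lower value above 80 CPM was not seen.

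The members did not sit next to each other by identifier number. The smallest gap was 38 numbers between B members and 1104 between A members. The files do not say that the numbers follow gene order, and positions were not used here. Within 5 numbers of a B member there were 57 other eligible B genes, and 0 of them had a ratio of at most 0.25 at either stage, where 3.92% of all eligible B genes did. Their median log2 ratio was -0.10 at meiosis and -0.18 at mitosis. The 7 eligible A genes within 5 numbers of an A member held 0 such genes, where 2.52% of all eligible A genes were such. Their medians were -0.13 and 0.22. Both sets of neighbours are small for shares this low, so nothing is read from these counts.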

How the data were processed

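Anther RNA of 3 genomes at 2 stages was measured in 18 libraries, grouped by their titles. The authors deposited raw counts per gene for both genomes and unplaced sequence, and FPKM values that equal the count divided by a fixed length and by the library total (largest relative deviation 5.32e-08). The submitters' processing notes name HTSeq 0.6.0, HISAT2 2.1.0, TopHat2 and Bowtie 1.0.1. What each did, and the build, gene models and strandedness, is not given in the sources used here. Reads shared by A and B copies of nearly identical sequence may be assigned to either, which can move counts between them. For 1 library a repeated, identical column was not used (1 column).

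The members, the rule and the lists were chosen with earlier results of these data known. For each genome, counts of all its genes in the parent and AB (4 groups, filterByExpr, TMM) were fitted with edgeR 4.0.16 in R 4.3.3 by the quasi-likelihood test, with Benjamini-Hochberg adjustment over all genes tested. Each SE is the log2 change divided by the root of its F value. TMM moves the stage change in AA by 0.52 and in BB by 0.13 on the log2 scale against plain CPM, so steadiness is relative to the scaling. It moves the stage change in AB by 0.10 for A genes and 0.01 for B genes. Alternatives were DESeq2 1.42.0, limma 3.58.1 on log2(FPKM + 1) and log2(FPKM + 0.1), other scalings and filters, other limits in the rule, the replicate number as a block, and leaving out libraries. The difference between stage changes was recomputed under other scalings after seeing the data. The fit was tested on simulated counts with known changes.

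Named identifiers were limited to 2 per direction, contrast and genome. For AB against the parent these are the members with the highest parental level and those with the lowest ratio at mitosis, with at least 10 AB counts per stage. For the AB stage change they are the called members with the largest changes, averaging 10 or more counts per library at the higher stage, with at least 10 counts in all at the lower one. A list of meiocyte, tapetum, pollen and leaf markers could not be matched. The floor of 3 counts covers counting error only, as reads lacking molecular identifiers may be copies of 1 molecule.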

Additional observations from a re-analysis of the deposited data

Results flagged for a closer look

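For 7 of the 11 named members the stage change in AB differed from that in the parent by edgeR's quasi-likelihood test of the difference, with Benjamini-Hochberg adjustment over all genes of the genome. In the same test 62.6% of eligible A genes and 65.7% of eligible B genes were called, so this count is near the background. Of the 7, 6 had been named for a large stage change in AB, while the rule held the change in the parent within 2-fold. The rule used the same group levels as this test, so the p-values below are descriptive only. Values are log2 stage change in AB minus that in the parent. Upward differences were 3.58 for BjuB007228 (edgeR adjusted p = 1.26e-10), 2.86 for BjuB019642 (6.34e-12) and 1.58 for BjuA027772 (6.93e-05). In each of these genes the AB libraries at mitosis all lay above those at meiosis, which their choice for a large rise largely fixes. The share of eligible genes with such separation was not counted.

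Downward differences were -1.89 for BjuB031848 (edgeR adjusted p = 9.77e-07), -1.53 for BjuB041186 (9.64e-08), -1.40 for BjuB029430 (0.000452) and -1.35 for BjuA014011 (0.0219). The last one did not pass with library sizes from all genes (-0.89), without AB replicate 3 at meiosis (-1.02) or without AB replicate 2 at mitosis (-1.07), with edgeR adjusted p = 0.116, 0.121 and 0.0926. In plain CPM with 0.5 CPM added, the log2 ratio of BjuA014011 was -3.39 at meiosis and -3.85 at mitosis. That change is smaller than the tested difference, which is on the TMM scale. The other 6 differences kept their side of the threshold under every alternative run for them.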

How the results depend on the processing

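The number of members depended on the scaling and limits of the rule. With CPM of all counts, where each genome takes part of the counts of AB by construction, there were 27 A and 118 B members. Factors within the genome gave 8 A members by TMM and 8 by relative log expression, of which 3 were among the 4. A parental level of at least 20 left 2 A and 21 B members, and stages within 1.5-fold left 1 A member. Without a minimum of AB counts there were 61 B members, and with the ratio limit lowered to 0.5 of its value there were 11. Leaving out each library gave 3 to 5 A members and 31 to 39 B members.

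The median log2 ratio over members with all-count scaling was -4.39 and -4.26 for A genes and -3.85 and -3.54 for B genes at meiosis and mitosis, and it was -4.09 for A genes at mitosis with TMM. In the edgeR fit of the AB groups alone, 1 A member rose and 0 fell, since the filter on low counts removed the other 3, and 3 B members fell, where the cause was not tested. Without a filter on low counts 4 B members fell, and the cause was not tested. Leaving out each library, 1 to 3 A members rose and 4 to 7 B members fell. DESeq2 called 11 B members higher and 5 lower, of which 10 and 5 were among the 10 and 7. BjuB029430 passed with limma on log2(FPKM + 1) (-0.36) and on log2(FPKM + 0.1) (-0.55), with adjusted p = 0.00833 and 0.00299.

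With the replicate number as a block, 10 B members rose and 7 fell, and 2 A members rose and 1 fell, as without it. The labels give only a number, and deviations of same-numbered AB libraries had correlations from -0.026 to 0.025 over genes, so the numbers do not pair them. Depth limits the members with fewest AB counts, which had 4 to 9 counts summed over a stage.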

Other observations

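The 25 B genes lowered at both stages but left out for too few AB counts were a part of the picture that the members do not show. Of these, 13 had 0 AB counts at both stages and 17 had at most 3 counts at each stage. The other 8 passed the count limit at 1 stage. Their median BB level at meiosis was 18.2 CPM, against 33.5 CPM for the B members. At a given ratio a lower BB level gives fewer AB counts, so the count limit itself favours this difference.

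With the limits mirrored, at a ratio of at least 4 at both stages, 7 eligible B genes and 0 A genes were found. At single stages 38 B genes reached that ratio at meiosis and 25 at mitosis, and 4 and 15 A genes did.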
